A study of Mus musculus with 9 samples.

Results

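CC chemokines are small secreted proteins that attract leukocytes, and 8 of their genes were followed here across the mouse cells of glioblastoma xenografts: Ccl2, Ccl3, Ccl4, Ccl5, Ccl6, Ccl7, Ccl9 and Ccl12. They were chosen as a gene family by symbol, with earlier results of these data known, and are 8 of the 12581 genes used. All 8 symbols are listed in 8 of the 9 samples, and in the temozolomide (TMZ) sample 7 are listed and Ccl7 is missing, which is not a value of 0. The data are Drop-seq counts, in which single cells are caught in droplets with barcoded beads and each transcript is counted once by its unique molecular identifier (UMI). Host cells of 7 patient-derived orthotopic xenografts (PDOXs) without TMZ (P3, P8, P13, T16, T101, T192 and T233), grown from glioblastoma organoids in the brain, were set beside those of 1 normal nude mouse brain (Nu-NB) and of 1 P3 PDOX given TMZ (P3TMZ). By the study's methods, the control of the TMZ experiment received the vehicle. All hosts were nude mice, which lack mature T cells but keep microglia, monocytes and natural killer (NK) cells, and only mouse cells were measured here. T192 and T233 came from the same patient, and age was not given in the sources used here. Human cells were removed by FACS for P8 and by MACS depletion for the other PDOXs, and Nu-NB was sorted by FACS as well. P3 and P3TMZ stand for 1 mouse each by the study's description of the TMZ experiment, and for the other libraries the labels do not give the number of mice, so spreads and p-values describe these libraries.

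Chemokines bind G protein-coupled receptors on leukocytes and steer them along a gradient. Ccl3 and Ccl4 (MIP-1α and MIP-1β) and Ccl5 (RANTES) are inflammatory chemokines, and Ccl3 and Ccl5 are ligands of Ccr1. Ccl2 (MCP-1), Ccl7 (MCP-3) and Ccl12 (MCP-5) are ligands of Ccr2, the receptor by which monocytes leave the bone marrow and enter tissue, and Ccl6 and Ccl9 are further, rodent ligands of Ccr1. In the brain, microglia and border-associated macrophages (BAMs) are well-known sources of several of them after injury.

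The genes lie on chromosome 11 (GRCm38) in a pair of neighbouring groups. Ccl2, Ccl7 and Ccl12 lie between 82035571 and 82103400, and Ccl5, Ccl9, Ccl6, Ccl3 and Ccl4 between 83525778 and 83664683. The family takes its name from 2 adjacent cysteines, and the coding sequence around them is shown for 7 members because it marks each gene as a member and shows how far close relatives differ. The windows are 30 bases long, in exon 2, or in exon 3 for Ccl6 and Ccl9, and are given 5′ to 3′ on the strand of the gene from the GENCODE vM21 transcripts, with the 2 cysteine codons in capitals.
Ccl4 (chr11:83663470-83663499, plus strand): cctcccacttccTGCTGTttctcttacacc
Ccl5 (chr11:83529230-83529259, minus strand): gacaccactcccTGCTGCtttgcctacctc
Ccl2 (chr11:82036494-82036523, plus strand): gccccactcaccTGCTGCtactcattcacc
Ccl7 (chr11:82046526-82046555, plus strand): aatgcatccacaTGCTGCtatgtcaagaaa
Ccl12 (chr11:82102622-82102651, plus strand): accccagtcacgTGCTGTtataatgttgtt
Ccl6 (chr11:83589374-83589403, minus strand): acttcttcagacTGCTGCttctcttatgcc
Ccl9 (chr11:83575914-83575943, minus strand): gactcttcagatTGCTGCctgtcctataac
Over the whole coding sequence, Ccl3 and Ccl4 were the closest pair, with 69.5% identical bases, followed by Ccl6 and Ccl9 with 66.8%, and the lowest of the 28 pairs was 47.4%. The longest run of bases shared by any pair was 25, between Ccl6 and Ccl9. The 3′ ends that Drop-seq reads were not compared, and whether the counting used strand was not given.

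The 9 files held between 1294068 (P3) and 8410580 (P13) UMIs, and 14729 cells were kept, 733 to 2780 per sample, with medians of 516 to 1275 UMIs per cell. Libraries shared at most 2 cell barcodes. Cells were clustered without chemokine and chemokine receptor genes and named from marker lists, and levels are given as CPM, the UMI counts of a gene scaled to a common total over the UMIs of its class in a sample, with intervals of 95% that cover counting error only. Myeloid-like cells numbered 704 in Nu-NB and 256 to 1090 in the untreated PDOXs, and 13 of 13 myeloid markers were detected in each of these samples. Some clusters carried the markers of several classes at once, and these mixed clusters were left out. They held 371 cells in P13 and 179 in T16, with medians of 4228 and 3318 UMIs, and between 0.078% and 67.0% of the Ccl4 UMIs of a PDOX.

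In the PDOXs, Ccl4, Ccl6 and Ccl3 were the most abundant of these chemokines in myeloid-like cells, and Ccl7 the least. The sum of the members was 283.55 CPM in Nu-NB and 4846 ± 1244 CPM (SD, n = 7) in the PDOXs, from 3044 in T16 to 6192 in T192, so that no PDOX was near the brain without tumor.

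Among the inflammatory chemokines Ccl3, Ccl4 and Ccl5, Ccl3 was at 46.4 CPM in Nu-NB (19 UMIs), and in the PDOXs it ranged from 351 in T101 over a median of 1030 to 1827 in T192. Ccl4 was also at 46.4 CPM in Nu-NB, and in the PDOXs at 722 in T101, a median of 1353 and 2461 in P3. For both genes the counting interval of each of the 7 PDOXs lay above that of Nu-NB, and T101 was the lowest. Ccl5 was at 0 UMIs in Nu-NB, where 3 UMIs would be 7.33 CPM, and spanned 2.01 CPM in T233 (2 UMIs, counting interval 0.24 to 7.26), a median of 103 and 967 in T101. T101 stood far above the next PDOX, P13 at 323 CPM, and T233 lay below the limit that 0 UMIs allow in Nu-NB. The PDOX mean of Ccl5 was 244 ± 335 CPM (SD, n = 7), a spread larger than the mean, against 1019 ± 465 for Ccl3 and 1544 ± 663 for Ccl4.

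Of the Ccr2 ligands, Ccl12 was the most abundant. It was at 44.0 CPM in Nu-NB and between 86.5 in T233 and 1012 in P13, with a median of 563 over the PDOXs. Ccl2, the best known monocyte attractant, was at 12.2 CPM in Nu-NB (5 UMIs) and from 13.1 in T233 to 218 in P13, with a median of 111. T233 was the lowest PDOX for Ccl2 and Ccl12 and P13 the highest for both, and the ratio of Ccl12 to Ccl2 UMIs stayed between 3.97 and 8.55 over the 7 PDOXs. Ccl7 was close to the limit of detection: 72 UMIs over the 7 PDOXs and 2 in Nu-NB, with values from 0 in T233 to 67.5 CPM in T16. T16 stood above the next value of 25.1 CPM in P3, and 3 of 7 PDOXs lay below the 4.89 CPM of Nu-NB.

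The rodent Ccr1 ligands Ccl6 and Ccl9 ordered the PDOXs in another way. Ccl6 was at 105 CPM in Nu-NB and from 159 in T16 and 176 in P13 over a median of 825 to 2358 in P8 and 2916 in T233. Ccl9 was at 24.4 CPM in Nu-NB and between 47.6 in T16 and 296 in P8, with a median of 219. T16, P13 and T101 were the 3 lowest PDOXs for both genes. The ratio of Ccl6 to Ccl4 UMIs ranged from 0.0974 to 2.72, a 27.9-fold spread, while that of Ccl4 to Ccl3 ranged only from 0.957 to 2.06.

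**Figure D1:**
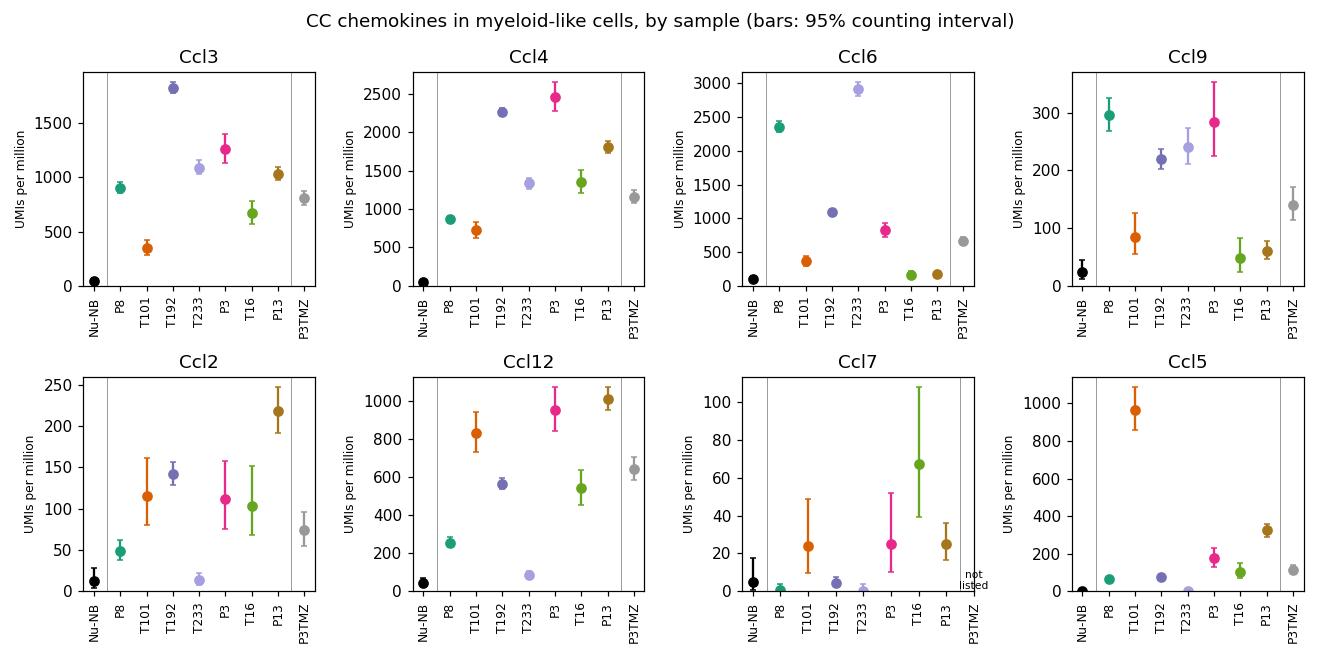
Level of each CC chemokine in myeloid-like cells, in CPM, for Nu-NB, the 7 untreated PDOXs and the P3 PDOX after TMZ; points are samples, bars are counting intervals of 95%, and each panel has its own linear axis from 0. Ccl3 and Ccl4 are above Nu-NB in every PDOX, Ccl6 is highest in P8 and T233, and Ccl5 is highest in T101.

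Since a transcript is counted once at its 3′ end, levels in CPM were set side by side between genes without dividing by length. By mean over the PDOXs the order was Ccl4 (1544), Ccl6 (1129), Ccl3 (1019), Ccl12 (605), Ccl5 (244), Ccl9 (176), Ccl2 (107) and Ccl7 (20.9 CPM). Each pair of neighbours in this order overlapped in the range of the 7 PDOXs, so the order was not fixed from one PDOX to the next. Ccl6 made up 49.2% of the UMIs of the 8 chemokines in P8 and 51.3% in T233, Ccl5 led in T101 with 27.9%, and Ccl4 led in T192, P3, T16 and P13 with 36.5 to 44.5%. In Nu-NB, Ccl6 led with 37.1% of 116 UMIs.

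**Figure D2:**
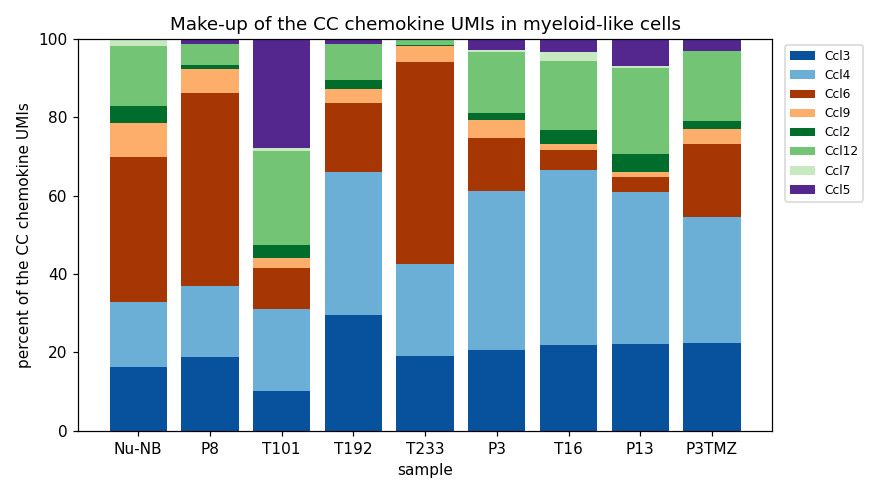
Make-up of the CC chemokine UMIs in myeloid-like cells: each bar is 1 sample and its segments, in percent of the UMIs of all members listed, are the members. Ccl6 takes 49.2% in P8 and 51.3% in T233, Ccl5 takes 27.9% in T101, and Ccl7 is not listed in P3TMZ.

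The PDOXs were set against Nu-NB to see whether chemokine transcripts of myeloid cells differ between tumor and brain. By the ratio of the PDOX mean to Nu-NB, Ccl4 was 33.2-fold higher (21.3 to 55.2 from the counting error of Nu-NB), Ccl3 21.9-fold (14.1 to 36.5), Ccl12 13.8-fold (8.71 to 23.2) and Ccl6 10.7-fold (7.97 to 14.8). Ccl2 was 8.79-fold (3.77 to 27.1) and Ccl9 7.20-fold higher (3.91 to 15.0). Ccl5 was at least 33.3-fold higher, against the 3 UMIs that 0 in Nu-NB allow, and at least 16.9-fold without T101. The values of these 7 genes were above that of Nu-NB in 7 of 7 PDOXs, but the counting interval lay above in 7 of 7 only for Ccl3 and Ccl4 and in 6 of 7 for the other 5, and Ccl5 in T233 was under the limit that 0 UMIs allow. Ccl7, with 2 UMIs in Nu-NB, was at 4.28-fold by its mean (1.19 to 35.4) and 2.70-fold without T16, and was above in 4 of 7. Fewer cells that make a transcript and less of it per cell cannot be told apart in such sums.

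The test across genes did not call any of them at this sample number. With edgeR's quasi-likelihood test and Benjamini-Hochberg adjustment (FDR at most 0.01 and a log2 fold change of at least 1), 0 of 9510 genes were called (0%), and 1812 had an unadjusted p under 0.05. Ccl5 had 0 UMIs in Nu-NB, so its fitted fold change depends on the prior count and is not given (adjusted p = 0.216). Of the other 7, the largest values were those of Ccl4, with a log2 fold change of 5.28 (SE 0.94, adjusted p = 0.0827), and Ccl3, with 4.68 (SE 0.94, adjusted p = 0.0893). Ccl12 was at 3.98 (adjusted p = 0.134), Ccl6 at 3.68 (0.259), Ccl2 at 3.31 (0.192), Ccl9 at 3.10 (0.182) and Ccl7 at 1.85 (0.692) by the same test. DESeq2 called 242 genes (2.54%), 197 of them higher, and among these Ccl4 (adjusted p = 5.4e-11), Ccl3 (5.7e-08) and Ccl12 (7.97e-04). With 1 brain the spread between brains is taken to be that between PDOXs, and with P8 left out edgeR called 43 genes and no member.

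The make-up of the myeloid-like cells differed between the same samples: 88.4% of those in Nu-NB were homeostatic microglia-like, against 2.84 to 38.2% in the PDOXs, and the homeostatic cells fell into 2 clusters. The first held 613 of the 622 homeostatic cells of Nu-NB and 76 of 78 in P8, but 86 of 228 in P13, and the second, led by Jun, Egr1, Btg2 and other immediate early genes beside P2ry12, held 142 in P13, 35 of 112 in T16 and 10 to 17 in T101, T192, T233 and P3. Within the homeostatic microglia-like cells alone, Ccl12 was at 30.9 CPM in Nu-NB and between 222 in T16 and 987 in P3, with 7 of 7 counting intervals above that of Nu-NB. Ccl4 was at 47.8 CPM in Nu-NB, at 149 in P8, and between 1028 and 2274 in the 6 PDOXs purified by MACS. Ccl3 was at 33.7 CPM in Nu-NB, at 92.9 in P8 and between 570 and 1679 in the other 6. For both, 6 of 7 counting intervals were above that of Nu-NB, and those of P8, from 5 UMIs of Ccl3 and 8 of Ccl4, overlapped it. P8, the only PDOX sorted by FACS as Nu-NB was, was thus lowest for Ccl3 and Ccl4 in these cells, yet second highest for Ccl12 at 687 CPM. The files of Nu-NB and P8 were also the only ones to list selenoprotein P under its older symbol (Sepp1, not Selenop), so a difference in gene naming and the sort cannot be told apart. In these homeostatic microglia-like cells, genes that dissociation is known to induce (Fos, Jun, Egr1, Atf3 and others) summed to 9648 CPM in Nu-NB, 4980 in P8 and 12572 to 21678 in the other 6 PDOXs. Like Ccl3 and Ccl4, they were thus higher in each of these 6 than in Nu-NB and P8, but they were lower in P8 than in Nu-NB. Ccl12 was higher in P8 than in Nu-NB, and for Ccl3 and Ccl4 a difference between these samples was not shown. The part of these genes in the chemokine values was not tested. Within the first cluster alone, which 5 PDOXs filled with at least 10 cells, Ccl4 was at 45.6 CPM in Nu-NB and 115 (P8) to 1068 (P13) in the PDOXs, with 4 of 5 counting intervals above that of Nu-NB. Ccl12 was at 31.4 CPM in Nu-NB and 0 (T233, 11 cells) to 712 (P8), with 4 of 5 intervals above, and Ccl3 at 28.5 and 96.2 (P8) to 520 (P13), with 3 of 5 above. In P13, Ccl3 and Ccl4 were at 1688 and 2808 CPM in the second cluster, against 520 and 1068 in the first.

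Over all myeloid-like cells, the dissociation genes summed to 9498 CPM in Nu-NB and to 4585 (P8) to 10935 in the PDOXs. In the comparison with Nu-NB, 13 of 16 were higher and 0 were called, with a median log2 fold change of 0.70 against 0.06 over all genes. Marker lists of other cells also moved: in myeloid-like cells the erythrocyte list summed to 3208 CPM in Nu-NB and to 0 to 414 in the PDOXs, the B cell list to 1581 and to 88.5 to 549, and the neutrophil list to 1072 and to 119 to 861. The T or NK list summed to 28.3 CPM in Nu-NB and to 3.18 to 476.2 in the PDOXs, with a median of 26.9. Of the T or NK markers, 2 to 10 were listed in a PDOX file. The part of these lists in the chemokine values, that of Ccl5 among them, was not tested.

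Within the PDOXs, Ccl3, Ccl4, Ccl5, Ccl6, Ccl9 and Ccl12 were higher in myeloid-like than in endothelial-like, astrocyte-like and mural-like cells of the same libraries, the classes that were tested. Ccl2 was tested against 2 of these and Ccl7 against none: in P8, 1 of 9 Ccl7 UMIs of the kept cells was in myeloid-like cells, and in T233 0 of 5, the 5 being in mixed clusters. Against endothelial-like cells (7 PDOXs), 6 members passed the filter on low counts and 6 of 6 were called higher, where 16.3% of 4655 genes were and 14.4% were lower (30.7% in either direction; 759 higher and 670 lower, but 640 and 909 with library totals without TMM). The log2 fold changes were 5.94 for Ccl12, 5.42 for Ccl4, 5.23 for Ccl3, 4.99 for Ccl9, 4.92 for Ccl6 and 4.27 for Ccl5, the last with the largest SE (0.66) and adjusted p (6.61e-05, edgeR's quasi-likelihood test). Ccl2 and Ccl7 did not pass the filter, with 2 and 1 UMIs in the endothelial-like cells of all PDOXs. Ccl5, Ccl9 and Ccl12 had 45, 10 and 47 UMIs there, against 1025, 1447 and 3764 in myeloid-like cells. Members with so few UMIs pass the filter through the myeloid-like cells, so these could only be called higher.

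Against astrocyte-like cells (6 PDOXs), 7 of 7 members tested were called higher, beside 20.8% of 6105 genes and 17.0% lower (37.8% in either direction), with log2 fold changes from 3.94 for Ccl6 to 4.59 for Ccl9. Against mural-like cells, the pericytes and smooth muscle cells of vessel walls (6 PDOXs), 6 of 7 members tested were called higher, beside 16.8% of 4244 genes and 9.85% lower (26.7% in either direction; 715 and 418 genes, but 606 and 570 without TMM and 833 and 298 with DESeq2), with log2 fold changes from 4.44 for Ccl5 to 5.51 for Ccl12. Ccl7 was not tested in either. These fits share their myeloid-like cells. Over the PDOXs, astrocyte-like cells held 11 UMIs of Ccl2, 14 of Ccl5 and 11 of Ccl9. In mural-like cells Ccl9 had 2, both in P13, and Ccl5 had 4 in P13 and 3 in T101. Ccl12 had 8 in P13, 2 in P3 and 1 in T16 there. In these comparisons these members passed the filter through the myeloid-like cells and could only be called higher. The dissociation genes were higher in the same cells: 10 of 15 tested were called higher and 1 lower against endothelial-like, 15 of 15 higher against astrocyte-like and 14 of 15 higher against mural-like cells, and their part in the members' values was not tested.

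Low levels of the members in other classes were compared with those of myeloid genes. Per 1000 UMIs of the myeloid markers, endothelial-like cells held 38.2 UMIs of Ccl3 and 52.1 of Ccl4, and myeloid-like cells 43.3 and 56.9, a ratio of 0.88 for Ccl3 and 0.92 for Ccl4. For both, the counting interval of the endothelial-like cells held the value of the myeloid-like cells. The ratio was 0.75 for Ccl9, 1.36 for Ccl12 and 0.70 for Ccl6, whose interval (25.4 to 42.1) lay below the 46.9 of myeloid-like cells. These ratios pool the UMIs of the PDOXs: 35 of the 47 endothelial-like UMIs of Ccl12 were in P13, without which its ratio was 0.67, and 34 of the 64 of Ccl6 were in T233. Ccl5 differed more, at 4.77 times the proportion of myeloid-like cells, and 37 of its 45 endothelial-like UMIs were in T16. Of these 37, 34 were in 3 cells with 2 or more markers of T or NK cells, and without T16 the ratio was 0.92 and without P13 8.85. Without the 3 cells, Ccl5 in the endothelial-like cells of T16 fell from 56.5 to 4.88 CPM. For the other UMIs, free RNA, doublets and transcripts of the cells themselves were not told apart.

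Ccl2 had a further place, which Ccl7 shared from few UMIs. In mural-like cells Ccl2 was at 254 ± 254 CPM (SD, n = 6), from 0 in T192 and 13.3 in P8 to 461 in P13 and 639 in P3, and 212 of the 231 UMIs came from P13. Its log2 fold change of myeloid-like over mural-like cells was -0.45 (SE 0.37, adjusted p = 0.373 by edgeR's quasi-likelihood test), so a difference was not shown, and the sign was positive with DESeq2 (0.000464). Fibroblast-like cells were at 390 CPM in P8, 689 in T16 and 61.6 in P13. Relative to the UMIs of the myeloid markers, Ccl2 was 67.8 times as frequent in mural-like and 37.6 times as frequent in fibroblast-like cells as in myeloid-like cells, whereas Ccl4 was at 0.67 and 0.65 times. Without P13 the mural-like values were 20.3 for Ccl2 and 0.24 for Ccl4, and the fibroblast-like value of Ccl2 was 18.6 without P8, 58.0 without T16 and 57.3 without P13. On the same measure, Ccl7 was at 75.3 times in fibroblast-like and 16.4 times in mural-like cells. Its UMIs were 6 in P8 and 1 in P13 in fibroblast-like cells, and 2 in P8 and 3 in P13 in mural-like cells. Without P8 these values of Ccl7 were 9.58 and 8.16. In Nu-NB, 14 mural-like and 16 fibroblast-like cells held 0 UMIs of Ccl2, which allows up to 423 and 313 CPM.

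**Figure D3:**
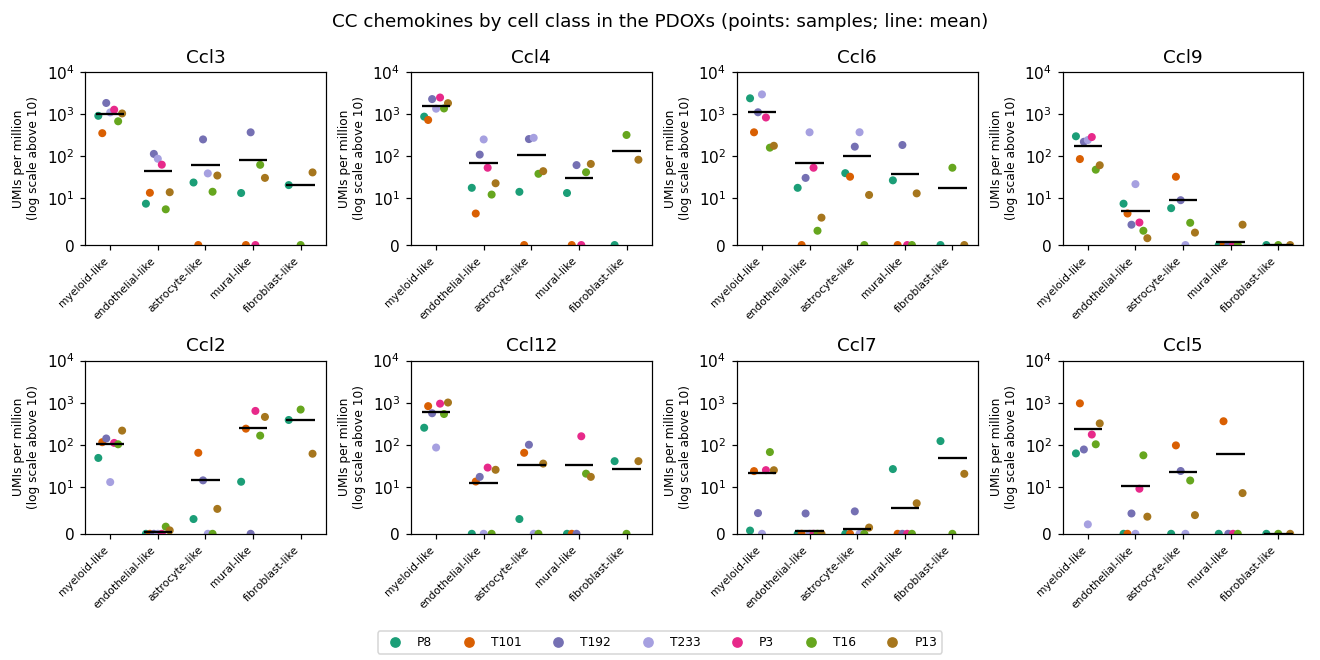
Level of each CC chemokine by cell class in the untreated PDOXs, in CPM on an axis that is linear to 10 and logarithmic above; points are samples with at least 10 cells of a class and lines are means. Most members are highest in myeloid-like cells, while Ccl2 has means of 254 in mural-like (6 PDOXs), 380 in fibroblast-like (3) and 107 in myeloid-like cells (7); within a PDOX the order varies, and T192 and P8 are lower in mural-like and P13 lower in fibroblast-like than in myeloid-like cells.

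Within the myeloid-like cells, clusters were named homeostatic microglia-like (P2ry12, Tmem119), activated microglia-like (Spp1, Cst7, Lpl), monocyte-like (Ly6c2, Plac8) or BAM-like (Mrc1, Cd163), and 2.84 to 48.6% of a sample's myeloid-like cells stayed without such a name. Chemokines had no part in this. Of the 4 members that could be tested between activated and homeostatic microglia-like cells, Ccl6 was the one called. It was at 332 ± 242 CPM (SD, n = 7) in homeostatic and 1359 ± 1059 in activated cells, with 27.8 and 325 in T16, 82.0 and 235 in P13 and 665 and 3060 in T233. It was higher in the activated cells of 7 of 7 PDOXs, with a log2 fold change of 2.06 (SE 0.24, adjusted p = 1.86e-08, edgeR's quasi-likelihood test, within PDOX), where 6.08% of 1151 genes were called higher and 3.91% lower (9.99% in either direction).

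Ccl3, Ccl4 and Ccl12 were not called between these subsets. Ccl4 was at 1439 ± 717 CPM (SD, n = 7) in homeostatic and 1807 ± 590 in activated cells, with a log2 fold change of 0.44 (SE 0.22, adjusted p = 0.130, edgeR). Ccl3 was at 984 ± 536 and 1069 ± 453 (log2 fold change 0.31, SE 0.25), and Ccl12 at 549 ± 263 and 718 ± 427 (0.29, SE 0.26). For Ccl3 the sign rested on P8, where it was at 92.9 CPM in homeostatic and 958 in activated cells, and for Ccl12 on P13. The dissociation genes summed to 4980 to 21678 CPM in homeostatic and 4520 to 12086 in activated cells, and 5 of 15 were called lower in the activated cells. Ccl2, Ccl5, Ccl7 and Ccl9 did not pass the filter, and Ccl9 was at 77.3 ± 76.8 and 197 ± 104 CPM.

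Monocyte-like cells had a profile of their own in the 4 PDOXs with at least 10 of them: P8 (23 cells), T101 (142), T192 (36) and P13 (62). Ccl5 was at 383 CPM in P8, 2007 in T101, 375 in T192 and 802 in P13. Against microglia-like cells, homeostatic and activated together, it was called higher, with a log2 fold change of 1.78 (SE 0.34, adjusted p = 6.82e-05, edgeR's quasi-likelihood test), where 5.12% of 1405 genes were (14.8% in either direction; 72 higher and 136 lower, but 95 and 99 without TMM). Another 4 members were called lower by the same test, beside 9.68% of genes: Ccl4 at -2.32 (SE 0.32), Ccl12 at -2.15 (SE 0.37), Ccl3 at -1.68 (SE 0.34) and Ccl6 at -1.57 (SE 0.32). Ccl4 was at 219 CPM in P8, 320 in T101, 428 in T192 and 514 in P13 in these cells, below the microglia-like subsets of the same PDOX except for the 149 of homeostatic cells in P8. With at least 500 genes per cell 21 genes were called and none of these members, and Ccl12 turned to 0.19.

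Ccl5 is also a product of T and NK cells, and cells with 2 or more of their markers lay among the myeloid-like cells (33 in T101, 13 in P8, 9 in T192). They held between 0 and 49.5% of the Ccl5 UMIs of a PDOX, 48 of 296 in T101 and 46 of 93 in P8. The lower end of 0 says little, since the P3 file lists 2 of the T or NK markers and T233 had 6 Ccl5 UMIs. Without them in either set of cells, Ccl5 in monocyte-like and microglia-like cells was at 1805 and 295 CPM in T101, 337 and 55.9 in T192 and 759 and 388 in P13, with counting intervals that did not overlap. In P8 it was at 56.1 CPM in monocyte-like cells, from 1 UMI, and at 37.2 in microglia-like cells, and the interval of the first (1.42 to 312) held that of the second, so the direction in P8 was not shown without these cells. The test was not repeated without them. Without T101 the adjusted p of Ccl5 was 0.0222, which is not past the threshold. Over the 4 PDOXs, the monocyte-like cells also held markers of T or NK cells (177 to 1205 CPM), B cells (105 to 6190) and neutrophils (33.2 to 7847), beside 1660 to 7219 CPM of monocyte markers. Their part in the differences of the other members was not tested.

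BAM-like cells reached 10 in only 2 PDOXs, T16 (32 cells) and P13 (19), so no test was made. Ccl7 was at 895 CPM there in T16 (16 UMIs) and 365 in P13 (7 UMIs), and at 0 in the homeostatic microglia-like cells of the 7 PDOXs. Ccl2 was at 839 and 574 CPM and Ccl12 at 1454 and 1930, and all 3 Ccr2 ligands were thus higher than in the microglia-like subsets of the same PDOX. These 16 UMIs are nearly all of the 17 Ccl7 UMIs of the myeloid-like cells of T16. In the 26 BAM-like cells of Nu-NB, Ccl2 and Ccl7 had 1 UMI each and Ccl12 had 4.

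**Figure D4:**
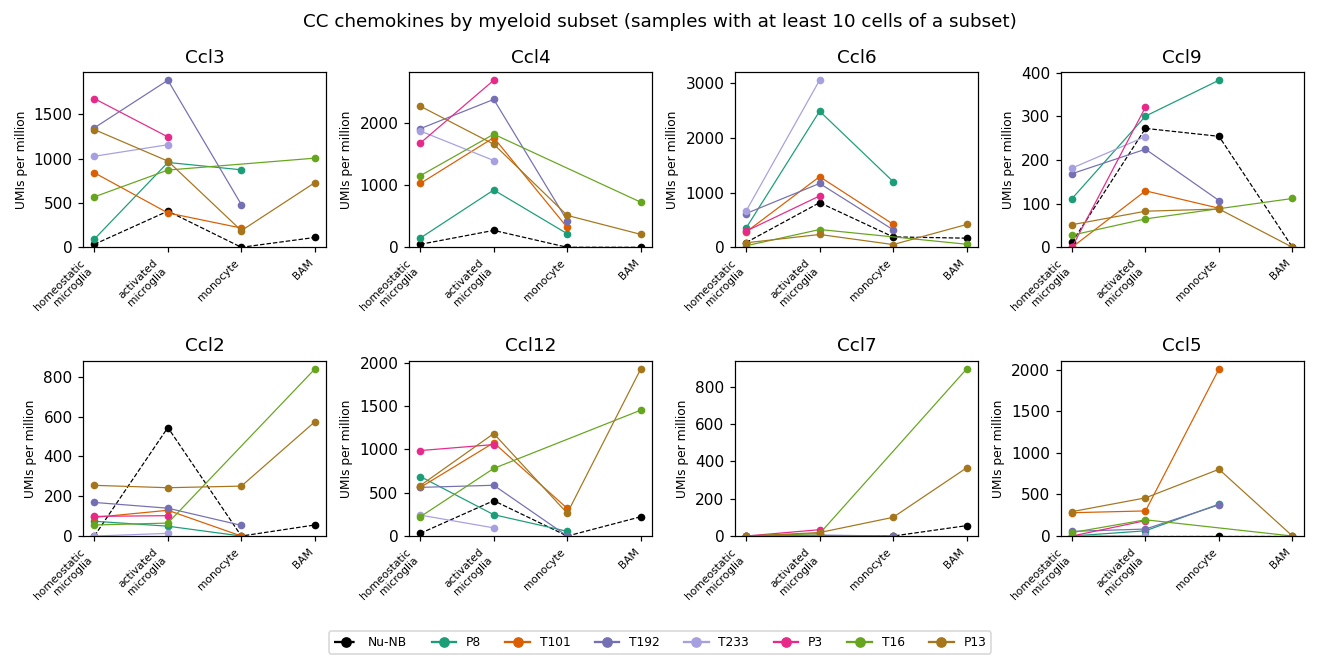
Level of each CC chemokine in subsets of myeloid-like cells, in CPM on linear axes; points are samples with at least 10 cells of a subset and lines join the points of a sample. Ccl6 rises from homeostatic to activated microglia-like cells in 7 of 7 PDOXs, Ccl5 is highest in monocyte-like cells of T101 (2007), and Ccl7 is highest in BAM-like cells.

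At equal depth, chemokine transcripts were found in most myeloid-like cells of the PDOXs that had at least 500 UMIs. Shallower cells were left out, which kept 318 of 704 cells in Nu-NB, 119 of 256 in P3 and 594 of 608 in P13. Of the cells thinned to 500 UMIs, 72.0 ± 11.5% (SD, n = 7) held at least 1 UMI of a member, from 56.5% in T16 to 83.8% in T192, against 9.75% in Nu-NB (31 of 318 cells; exact binomial interval 6.72 to 13.6%). Without thinning and with all cells, the PDOX mean was 73.9%. Shares of cells with 3 or more different members ranged from 6.21% in T16 to 23.6% in T192, and 0.629% of cells in Nu-NB had as many. Ccl4 was found in 34.5 ± 9.80% of the PDOX cells (SD, n = 7), Ccl3 in 30.3 ± 11.6% and Ccl12 in 16.3 ± 7.77%. Ccl6 spread most, from 5.39% of cells in P13 to 64.3% in T233. Ccl9 was found in 7.47%, Ccl5 in 5.88% (2.96% without T101), Ccl2 in 3.39% and Ccl7 in 0.599%. In endothelial-like cells, taken as the background, Ccl3 was found in 2.10%, Ccl6 in 1.90%, Ccl4 in 1.67%, Ccl12 in 0.889%, Ccl5 in 0.266%, Ccl9 in 0.255%, Ccl2 in 0.0701% and Ccl7 in 0% of 1343 cells.

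Ccl3 and Ccl4 were the pair found most often in the same cell. Of 2463 thinned myeloid-like cells of the PDOXs, 800 held Ccl3, 870 Ccl4 and 453 both, which is 1.48 times the product of the shares within each PDOX, and the count was above that product in 7 of 7. Ccl3 and Ccl6 were together in 275 cells (1.05 times), and Ccl4 and Ccl6 also in 275 (1.03 times). Ccl2 and Ccl12 shared 41 cells, 2.30 times the product. The correlation of Ccl3 and Ccl4 over the cells of a PDOX, which share library and depth, averaged 0.29 (0.19 to 0.42, 7 PDOXs). Of other genes, those most like Ccl6 were Lpl (mean r 0.24) and Spp1 (0.24), both markers of the activated list. For Ccl4 (Atf3, Nfkbia and Nfkbiz), Ccl3 (Atf3, Rgs1 and Zfp36), Ccl12 (Ifi202b, Ifitm3 and Tmsb4x) and Ccl9 (Postn, Lgals3 and Fam32a) the highest values were 0.15, 0.12, 0.12 and 0.09, too weak in sparse counts to be read.

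Of the receptor genes on the list, Ccr1, which binds several of these ligands, and Ccrl2, an atypical receptor known to bind chemerin, were called higher in myeloid-like than in endothelial-like, astrocyte-like and mural-like cells. Against endothelial-like cells the log2 fold changes were 5.67 for Ccr1 and 3.84 for Ccrl2. Against Nu-NB, Ccrl2 was at a log2 fold change of 4.35, with 22.0 CPM in Nu-NB and 388 ± 174 (SD, n = 7) in the PDOXs. Ccr1 was at 0.89 and Ccr2 at -0.27, and none of these was called. Ccr2, the receptor of Ccl2, Ccl7 and Ccl12, was at 89.7 to 1569 CPM, here over all genes of a file, in monocyte-like cells (4 PDOXs) and 0 to 84.3 in microglia-like cells (7 PDOXs); as one of the monocyte markers it was left out of naming.

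Of 13 other CC chemokines, 0 passed the filter between classes or subsets and 3 did against Nu-NB, with a median log2 fold change of 2.07. The one with most UMIs was Ccl8, with 240 in the myeloid-like cells of the PDOXs, more than the 72 of Ccl7. It was at 32.3 ± 31.0 CPM (SD, n = 7), over all genes of a file, from 0 in P3 and 0.67 in P8 to 88.0 in P13, and at 2.36 in Nu-NB, and was not called (log2 fold change 3.99, SE 2.40, adjusted p = 0.384, edgeR). Among chemokines of other families, Cxcl13, a B cell attractant, was at 3369 ± 1341 CPM (SD, n = 7) in the myeloid-like cells of the PDOXs and 56.2 in Nu-NB, and its PDOX mean was above that of each of the 8 CC chemokines. Against endothelial-like cells, 4 of 5 tested genes of these families were called higher (Cxcl2, Cxcl13, Cxcl16 and Cxcl14, with log2 fold changes of 5.31, 5.31, 3.82 and 3.52) and Cxcl12, which vessels are known to make, was called lower at -6.30. In monocyte-like cells, Cxcl13 was called lower than in microglia-like cells (-3.64) and Cxcl10 higher (1.96).

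TMZ, an alkylating drug, was given by mouth to the P3 PDOX in 1 arm, so the comparison has 1 sample on either side and no replicate check. In myeloid-like cells, 256 in P3 and 339 in P3TMZ, Ccl4 was at 2461 CPM untreated and 1160 after TMZ, a ratio of 0.471 (counting interval 0.425 to 0.522). Ccl9 was at 283 and 140 CPM (0.493), Ccl3 at 1263 and 807 (0.639) and Ccl12 at 951 and 644 (0.678). The smallest change was that of Ccl6, at 825 and 667 CPM (0.808, 0.689 to 0.950), while the interval of Ccl2 held 1 (0.660, 0.415 to 1.07). All 7 members listed were lower after TMZ, and 6 of the intervals lay below 1. The P3TMZ values of all 7 members listed lay within the range of the 7 untreated PDOXs.

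The share of homeostatic microglia-like cells among myeloid-like cells was 6.64% in P3 and 23.3% in P3TMZ, and the median UMIs of a myeloid-like cell were 458.5 and 828. Within the 126 and 202 activated microglia-like cells alone, Ccl4 was at 2693 CPM in P3 and 1275 in P3TMZ, Ccl3 at 1247 and 846, Ccl12 at 1057 and 673, and Ccl6 at 940 and 725. With cells thinned to 500 UMIs the ratio of Ccl4 was 0.338 and that of Ccl3 0.409. Fewer cells with a transcript and less of it per cell were not separated, and the part of depth was not tested.

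**Figure D5:**
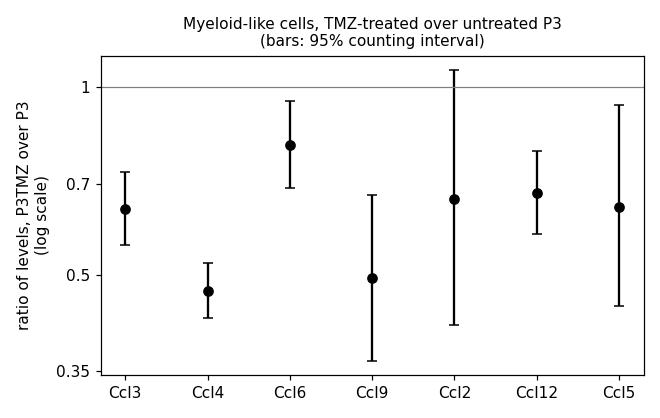
Ratio of the level in P3TMZ to that in untreated P3 for the 7 CC chemokines listed in both, in myeloid-like cells, on a logarithmic axis; bars are counting intervals of 95%, with 1 sample on either side. Points lie between 0.471 for Ccl4 and 0.808 for Ccl6, and the bar of Ccl2 crosses 1.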

How the data were processed

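Drop-seq data of mouse cells were analysed from 9 samples. The authors mapped reads to human and mouse genomes (GRCm38/mm10; STAR and bcl2fastq 2.0 in the submitters' processing notes) and deposited raw UMI counts per gene and cell barcode, without normalization. The annotation used for counting is not given in the sources used here.

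The members and all lists were chosen with earlier results of these data known, and the rule that turns markers into cluster names was set after clusters had been seen. Genes named beside the members were called genes of fixed lists (up to 5 per list and comparison by size), Ccr1 and Ccr2, and the 3 genes most alike each member. Cells had at least 200 genes and at most 30% mitochondrial UMIs, and doublets were treated by dropping, in each sample, the 5% of cells that scrublet scored highest. Of the genes listed in all files, 12580 were used with Ccl7. Cells were clustered with scanpy 1.11.5 and leidenalg 0.10.2 (Python 3.11.15; 2000 variable genes, 30 components, 20 neighbours, resolution 1), without batch correction. Chemokine and receptor genes (Ccr2 and Pf4 among them) were kept out of clustering and naming. Sums of UMIs over a class with at least 10 cells in a sample entered the quasi-likelihood test of edgeR 4.0.16 in R 4.3.3, with TMM scaling and filterByExpr, with the PDOX as a term within PDOXs. DESeq2 1.42.0, no filter, no TMM, other cell filters, resolution 2, thinning and leaving out each PDOX were alternatives. The script was tested on simulated data. Intervals are exact Poisson or binomial ones of 95%. Total UMIs per file of 1294068 to 8410580 make levels of a few UMIs imprecise. Tests kept each PDOX apart (T192 and T233 summed was an alternative), while ratios to myeloid genes and counts of co-detected cells were taken over the PDOXs together. The growth pattern of the tumors, which the labels do not give, was not used. A receptor gene and a sequence are not reported here.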

Additional observations from a re-analysis of the deposited data

Results flagged for a closer look

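Of 30 groups of PDOX values tested, 4 held a sample whose gap to its nearest neighbour was large against the whole range, by Dixon's test, which chance flags in about 1 in 20 groups. Ccl5 in myeloid-like cells was at 967 CPM in T101, above 323 CPM in P13, and T101 also held 142 of the monocyte-like cells. Of its 284 Ccl5 UMIs in myeloid-like cells, 157 were in monocyte-like cells, 42 of them in cells with T or NK markers. Microglia-like cells held 10, and the rest lay in cells without a subset name, 48.6% of its myeloid-like cells. Ccl7 in myeloid-like cells was at 67.5 CPM in T16, above 25.1 CPM in P3, and T16 held 32 BAM-like cells. In endothelial-like cells of T233, Ccl4 was at 249 CPM, with the next value at 109, and Ccl6 at 368 CPM, with the next at 52.9. The summed myeloid markers in endothelial-like cells were at 5299 CPM in T233, the highest of the 7 PDOXs, with a median of 746. Their part in these values was not tested.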

How the results depend on the processing

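Across the alternatives, the members kept direction and side of the threshold in 85 of 85 values against endothelial-like, 93 of 93 against astrocyte-like and 76 of 79 against mural-like cells. These counts include members with few UMIs outside myeloid-like cells, which passed the filter through the myeloid-like cells and could only be called higher. Genes called against Nu-NB were 242 with DESeq2, 2 with at least 500 genes per cell and 0 to 43 when 1 PDOX was left out (43 without P8, 1 without T101, 1 without T233). Without a gene filter, genes called were 3325 (endothelial-like), 4213 (astrocyte-like), 2211 (mural-like) and 284 (activated; 271 higher and 13 lower, against 70 and 45). With cells thinned to 500 UMIs they were 602, 939, 492, 70 and, for monocyte-like cells, 61. With at least 500 genes per cell they were 70 (activated) and 21 (monocyte-like), and with 1 PDOX left out 75 (without P13) to 214 (without T16; 196 without T101) and 135 (without P13) to 220. Fewer genes pass the filter after thinning; the cause of the other changes was not tested.

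Signs that turned were those of Ccl7 against Nu-NB without doublet filter (-0.25), of Ccl2 against mural-like cells with DESeq2 (0.000464), without gene filter (0.028) and thinned (0.057), of Ccl3 (-0.024 without P8, up to 0.53 without another PDOX) and Ccl12 (-0.027 without P13, up to 0.78, and -0.25 with at least 500 genes) in activated cells, and of Ccl12 in monocyte-like cells (0.19, at least 500 genes). Of 54 values for monocyte-like cells, this and 11 others were no longer past the threshold: with at least 500 genes those of Ccl3, Ccl4, Ccl5 and Ccl6, thinned those of Ccl3, Ccl6 and Ccl12, Ccl5 without gene filter and without T101, Ccl3 without P13 (-1.32) and Ccl6 without doublet filter.

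Thinned to 1000 UMIs, shares of cells were 7.72% for Ccl2, 46.7% for Ccl3, 51.1% for Ccl4, 1.26% for Ccl7, 14.0% for Ccl9, 26.1% for Ccl12 and 87.2% for any member. To 300 UMIs the last was 57.9%, and without thinning Ccl2 was at 7.64%, Ccl7 at 1.25% and Ccl9 at 14.0%. With thinned cells, ratios after TMZ were 0.409 (Ccl3), 0.338 (Ccl4), 0.212 (Ccl5), 0.562 (Ccl6) and 0.306 (Ccl9), and Ccl12 was at 0.569 with at least 500 genes. Alternatives with mixed cells, for TMZ, without T or NK cells, within 1 homeostatic cluster and without 1 PDOX for shares and pooled ratios were chosen after seeing the data. T192 and T233 were not summed for mural-like and monocyte-like cells, since T233 had too few of these cells to enter, and the mural-like fit with at least 500 genes and the BAM-like fit, with 2 PDOXs each, were not run. No paired analysis was possible because replicate numbers of Nu-NB, PDOX and P3TMZ were given in accession order and pair no samples; comparisons of classes within PDOXs had the PDOX as a term.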
